A study of Homo sapiens with 34 samples.

Results

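The genes of the LIN28 and let-7 axis and its oncofetal targets followed here through histone mark peak lists were LIN28A, LIN28B, TRIM71, DICER1, HMGA1, HMGA2, IGF2BP1, IGF2BP2 and IGF2BP3. They were chosen by name, and all 9 were found among the 19970 protein-coding genes of GENCODE on chromosomes 1 to 22 and X (hg38). The lists came from ChIP-seq of KELLY, a MYCN-amplified human neuroblastoma line carrying a doxycycline-inducible shRNA to RUNX1T1. Cells were given DMSO or doxycycline for 72 h, and H3K4me1, H3K4me2, H3K4me3, H3K27ac and H3K27me3 were profiled in 3 libraries per mark and treatment, which gave 30 lists. Both treatments therefore carried the shRNA construct, and doxycycline was the only labelled difference, so an effect of doxycycline itself cannot be told apart from that of the knockdown. The shRNA acts on RNA, which these lists do not measure, so they hold no check of the knockdown.

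LIN28A and LIN28B are RNA-binding proteins of early development that bind the loop of let-7 precursors and block their maturation. Mature let-7 in turn represses a set of fetal growth genes, among them LIN28B itself, TRIM71, HMGA2 and the IGF2BP genes, so that either LIN28 or let-7 tends to dominate. LIN28B is a known oncogene of high-risk neuroblastoma. H3K4me3 marks active or poised start sites, H3K4me1 and H3K4me2 the flanks of start sites and enhancers, H3K27ac active elements, and H3K27me3 chromatin repressed by Polycomb.

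The microRNAs that link these genes share a single seed (bases 2 to 8, in capitals). Of the 12 let-7 family genes, which give 9 distinct 5p sequences, 3 are shown to mark where the family differs outside the seed (RefSeq, GRCh38.p14).
let-7a-5p: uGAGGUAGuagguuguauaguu
let-7i-5p: uGAGGUAGuaguuugugcuguu
miR-98-5p: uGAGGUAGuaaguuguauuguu
The letters GGAG, which the LIN28 zinc knuckles bind, lay between the arms in 8 of the 11 let-7 hairpins with both arms placed, against 8.12% of 739 human hairpins treated the same way.

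The RefSeq promoter table held 13 windows for 6 of the 9 genes. Sequences are shown for both LIN28B starts, which differ in CpG, for IGF2BP3, which held 2 E-boxes, and for IGF2BP2, a CpG-rich start under H3K27me3. They were picked after the windows had been searched. The sequences are the bases just before a start, and they were searched for the E-box CACGTG, the palindromic site of MYC-family factors. LIN28B has a CpG-rich upstream start and a CpG-poor canonical start 16.2 kb downstream of it. In the first sequence, capitals mark CpG (25 in 151 bases, chr6:104940715-104940865, plus strand, an interval that overlaps the first exon of the antisense lncRNA gene LIN28B-AS1).
LIN28B upstream start: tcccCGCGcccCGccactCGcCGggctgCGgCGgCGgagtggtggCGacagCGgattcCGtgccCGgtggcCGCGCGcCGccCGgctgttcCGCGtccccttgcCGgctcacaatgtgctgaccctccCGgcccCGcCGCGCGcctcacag
In the second, capitals mark the only CACGTG (chr6:104956857-104957106, plus strand, within an intron of the upstream transcript).
LIN28B canonical start: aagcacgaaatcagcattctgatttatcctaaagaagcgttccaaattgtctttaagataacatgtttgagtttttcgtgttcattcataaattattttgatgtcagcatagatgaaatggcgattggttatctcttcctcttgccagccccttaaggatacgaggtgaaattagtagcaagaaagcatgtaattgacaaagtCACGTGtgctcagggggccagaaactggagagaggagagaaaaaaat
IGF2BP3 held 2 copies of CACGTG in the same distance before its start (chr7:23470492-23470741, minus strand, intergenic).
IGF2BP3 canonical start: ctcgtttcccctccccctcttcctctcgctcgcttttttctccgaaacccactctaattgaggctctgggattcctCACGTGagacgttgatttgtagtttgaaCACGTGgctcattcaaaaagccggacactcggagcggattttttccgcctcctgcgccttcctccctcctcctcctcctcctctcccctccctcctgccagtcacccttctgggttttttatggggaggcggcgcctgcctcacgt
IGF2BP2, which lay under H3K27me3 in the lists below, had 32 CpG and no CACGTG (chr3:185825043-185825292, minus strand, intergenic, CpG in capitals).
IGF2BP2 canonical start: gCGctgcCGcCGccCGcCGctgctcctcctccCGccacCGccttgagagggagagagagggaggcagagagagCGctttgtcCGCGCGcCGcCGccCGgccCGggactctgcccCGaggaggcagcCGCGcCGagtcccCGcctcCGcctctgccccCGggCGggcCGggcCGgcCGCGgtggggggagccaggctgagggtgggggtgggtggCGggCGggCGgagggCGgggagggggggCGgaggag
Of all 35116 RefSeq windows of 250 bases, 6.34% held CACGTG and 0.535% held 2 or more, and the median window held 11 CpG. Among the members, 2 of the 13 windows and 2 of the 6 genes held it, and the windows of TRIM71, DICER1, HMGA1 and IGF2BP2 held none. The full upstream LIN28B window held 33 CpG and the canonical window 6. A match is a description of letters and no evidence of binding.

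Peaks were called by the authors in each library separately. The depth used for calling was 57.0 to 63.4 M reads with doxycycline and 71.9 to 81.1 M with DMSO, so calling depth and treatment cannot be told apart. Lists held 23801 to 157087 peaks. The H3K27me3 lists were of 2 technical kinds. DMSO replicate 1 and doxycycline replicates 1 and 2 had a fragment length estimate of 256 to 280 bp and a median peak of 1898 to 1990 bp, and the other 3 had 105 to 112 bp and 410 to 571 bp. All 8 noradrenergic neuroblastoma markers had H3K4me3 and H3K27ac at a start site in 6 of 6 lists and none had H3K27me3, while PTPRC, CD3E and ALB had neither active mark and EPCAM had both.

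The first question was which chromatin state each gene carried. A gene was counted as marked where a peak lay within 1 kb of any of its annotated start sites. Members were marked in all 6 libraries in 6 of 9 cases for H3K4me1, 8 for H3K4me2, 7 for H3K4me3, 6 for H3K27ac and 3 for H3K27me3. Over all protein-coding genes the shares were 61.4, 71.8, 71.9, 64.2 and 20.1%. Most of the axis therefore carried active marks, at rates near those of all genes. The 3 genes with H3K27me3 in all 6 libraries were LIN28A, HMGA2 and IGF2BP2. Of these, HMGA2 had no H3K4me3 or H3K27ac at a start site, and IGF2BP2 had no H3K27ac.

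**Figure D1:**
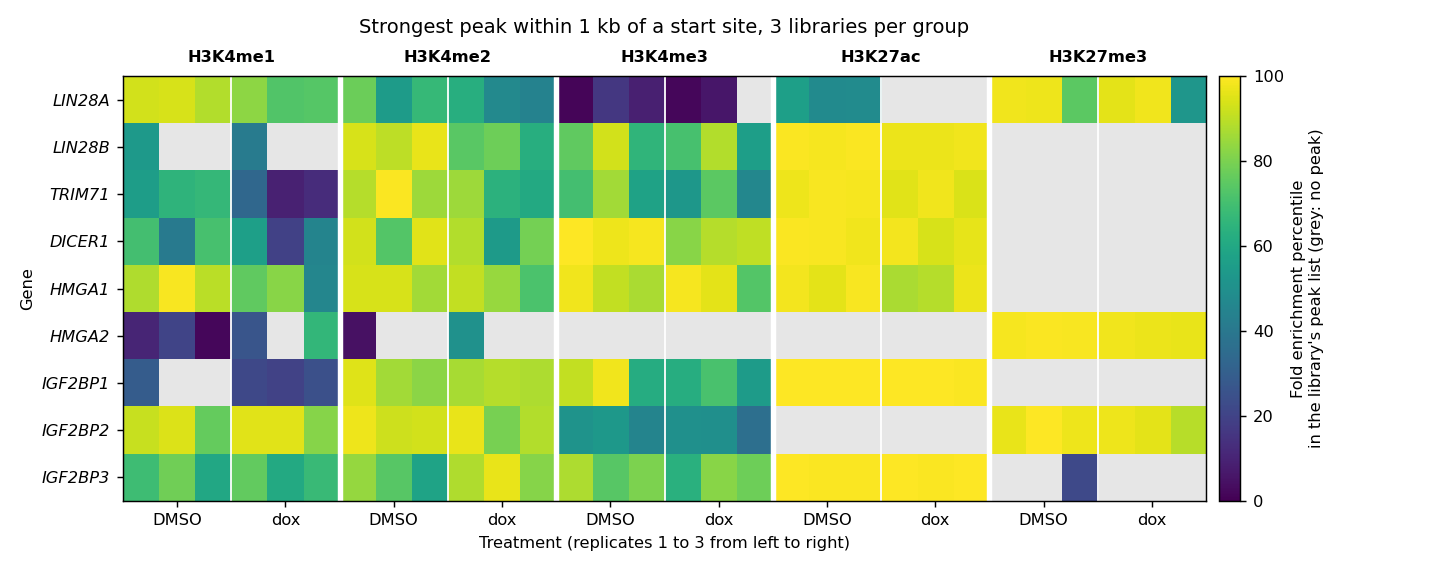
Heat map of the 9 genes (rows) in the 30 libraries (columns, grouped by mark and treatment). Colour gives the percentile, within the library's own list, of the fold enrichment of the strongest peak within 1 kb of a start site, and grey marks no peak. LIN28A, HMGA2 and IGF2BP2 were the genes with H3K27me3 in 6 of 6 libraries, and LIN28A was the gene whose H3K27ac peak was in 3 of 3 DMSO and 0 of 3 doxycycline lists.

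The strength of a start site peak was described by the rank of its fold enrichment (ChIP signal over local input) in its own list, from 0 (no peak) to 100 (strongest), because depth and input differed between libraries. Groups were called separated where all 3 libraries of a treatment lay above all 3 of the other. An exact two-sided permutation of 3 against 3 libraries cannot give a p below 0.1, and each separated difference below has that p, so no single difference can pass a 5% threshold. The share of all genes that separated the same way is given instead as the background. Nothing in the labels says that the libraries came from separate cultures, so the spread may be technical.

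LIN28A and LIN28B, the 2 blockers of let-7 maturation, differed in state. LIN28A (chr1:26410817-26429728, plus strand, 1 annotated start) carried all 5 marks in 3 of 3 DMSO libraries, a combination held by 3.85% of genes. In doxycycline H3K4me1, H3K4me2 and H3K27me3 were left in 3 of 3, as in 1.03% of genes. Its H3K4me3 was weak throughout, at percentiles of 1.48, 16.1 and 8.94 in DMSO and 1.58 and 6.14 in doxycycline replicates 1 and 2, with no peak in replicate 3. H3K27me3 stood at 97.9, 97.5 and 75.0 in DMSO and at 95.9, 98.0 and 52.4 in doxycycline, so the treatments overlapped and replicate 3 was the lowest of each. It covered 108.3, 71.1 and 56.7 kb of the gene and its 100 kb flanks in DMSO and 116, 106 and 63.5 kb in doxycycline.

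The H3K27ac peak of LIN28A was present in all 3 DMSO and no doxycycline library. Its percentiles were 56.5, 47.8 and 48.2, its fold enrichment was 2.41 to 2.75 and its −log10 q-value 3.01 to 4.66. The peaks were 437 to 620 bp wide and ended at -807 to -682 bp from the start, so none reached the start itself. These were mid-rank peaks, and the lowest −log10 q-value in each DMSO H3K27ac list was 1.01. The separation was kept at a q of 0.001 or less, and under a q of 1e-10 or less no such peak was left in either treatment. LIN28A was the only member and mark with peaks in 3 of 3 against 0 of 3 libraries. Of genes with a peak in at least 1 library, 0.462% separated in this way in either direction for H3K27ac, 0.308% by loss in doxycycline, against 1 of 7 members. For H3K4me1, H3K4me2, H3K4me3 and H3K27me3 no member did, and the shares of genes were 0.383, 0.0374, 0.174 and 0.535%. The H3K4me1 peak of LIN28A, which spans the start, had percentiles of 93.0, 93.9 and 88.4 in DMSO and 82.8, 72.7 and 73.7 in doxycycline, and the groups did not overlap (91.8 ± 2.97 and 76.4 ± 5.58, SD, n = 3 each).

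LIN28B (chr6:104936616-105083332, plus strand) carried H3K4me2, H3K4me3 and H3K27ac in both treatments, as did 9.86% of genes in DMSO and 9.97% in doxycycline, and had no H3K27me3 at a start site in any library. H3K4me1 reached a start site in replicate 1 of each treatment alone. Of its 3 annotated start regions, the outermost, 20.5 kb before the canonical start, held no peak of any mark. The CpG-rich upstream start and the canonical start printed above each had H3K4me2, H3K4me3 and H3K27ac in 6 of 6 libraries, so both promoters carried active marks. H3K4me3 was stronger at the upstream start in 5 of 6 libraries, with fold enrichments of 33.3, 52.4 and 18.3 in DMSO and 34.0, 46.2 and 16.6 in doxycycline. At the canonical start they were 29.2, 36.7 and 19.2 in DMSO and 31.7, 26.2 and 14.9 in doxycycline. For H3K27ac the order was turned, and the canonical start was the stronger in 5 of 6 libraries.

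**Figure D2:**
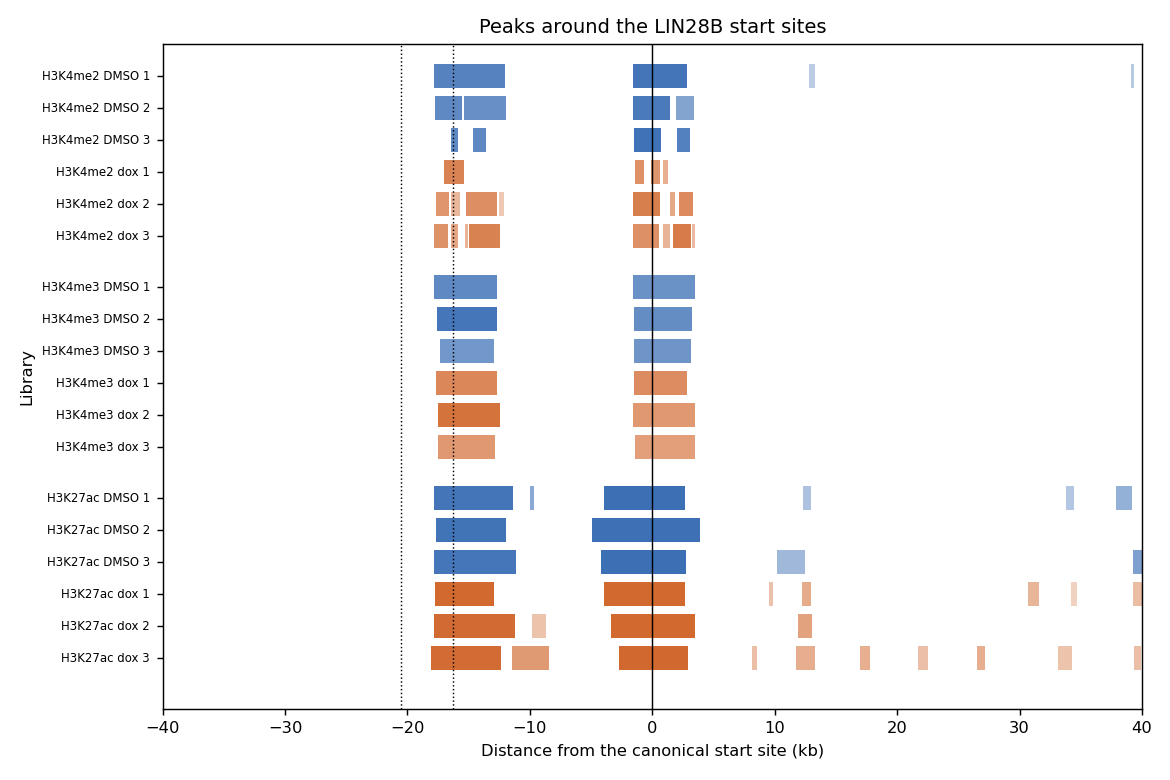
Map of H3K4me2, H3K4me3 and H3K27ac peaks around LIN28B in each library (rows, DMSO blue, doxycycline orange), by distance from the canonical start in kb. Darker bars have a higher fold enrichment percentile, the solid line marks the canonical start and dotted lines the 2 upstream starts. In each row a peak lay within 1 kb of the canonical start and of the start 16.2 kb upstream, and none lay within 1 kb of the start 20.5 kb upstream.

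Both H3K4me2 and H3K27ac of LIN28B ranked lower in doxycycline. The H3K4me2 percentiles were 94.1, 89.9 and 96.8 in DMSO and 74.3, 78.0 and 62.9 in doxycycline (93.6 ± 3.48 and 71.7 ± 7.92, SD, n = 3). The drop was present at both starts, from 93.6 to 67.8 at the canonical and from 77.9 to 64.7 at the upstream start. The H3K27ac percentiles were 99.5, 98.8 and 99.3 in DMSO and 97.1, 97.2 and 97.9 in doxycycline, so the peak stayed within the top 3% of each list. Its fold enrichments of 13.4, 10.9 and 8.18 in DMSO and 14.2, 12.0 and 8.71 in doxycycline overlapped between treatments. The highest, in doxycycline replicate 1, belonged to the upstream start. At the upstream start alone H3K27ac did not separate (94.6 ± 1.74 and 95.7 ± 1.31).

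TRIM71 and DICER1 act beside the LIN28 proteins. TRIM71 is a stem cell ubiquitin ligase and let-7 target, and DICER1 cuts let-7 precursors. Both carried H3K4me1, H3K4me2, H3K4me3 and H3K27ac without H3K27me3 in 3 of 3 libraries of each treatment, as 48.5 and 47.6% of genes did. TRIM71 (chr3:32817997-32897824, plus strand) had the largest fall in mean percentile among the separated pairs in which a peak was kept. Its H3K4me1 percentiles were 55.6, 65.2 and 66.6 in DMSO and 33.2, 9.05 and 12.5 in doxycycline (62.5 ± 5.97 and 18.3 ± 13.1). The fold enrichments of these peaks were 2.69, 2.57 and 2.42 in DMSO and 2.47, 2.19 and 2.23 in doxycycline, which overlapped. In doxycycline replicates 2 and 3 the −log10 q-values were 1.71 and 1.94, and the replicate 3 peak began 692 bp after the TRIM71 start. Its H3K4me2 stood at 88.7, 99.4 and 85.2 in DMSO and at 85.2, 64.2 and 60.8 in doxycycline. Its H3K4me3 stood at 70.0, 86.1 and 57.6 in DMSO and at 52.8, 74.9 and 46.2 in doxycycline, and its H3K27ac at 97.3, 99.0 and 98.5 and at 95.6, 97.8 and 94.5. The treatments overlapped in these marks, but with the replicate number as a block each of the 3 marks was lower in doxycycline in all 3 pairs. H3K27me3 within 100 kb of TRIM71 did not exceed 0.794 kb in any library.

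DICER1 (chr14:95086228-95158010, minus strand) had a single marked promoter. Of its 9 start regions, H3K4me3 and H3K4me2 peaks lay at the canonical region alone. The H3K4me3 percentiles were 99.7, 97.6 and 98.6 in DMSO and 82.0, 88.8 and 90.6 in doxycycline (98.6 ± 1.00 and 87.2 ± 4.52), and the groups did not overlap. H3K27ac overlapped, at 99.5, 98.9 and 98.0 in DMSO and 98.1, 94.0 and 96.3 in doxycycline, and was lower in all 3 same-numbered pairs.

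The 2 HMGA genes, which encode architectural proteins that bend AT-rich DNA lay in different states. HMGA1 (chr6:34236873-34246231, plus strand) carried the 4 active marks in every library, while HMGA2 (chr12:65824460-65966291, plus strand) carried H3K27me3 in every library and H3K4me3 or H3K27ac in none. HMGA1 H3K4me1 ranked at 87.9, 99.2 and 89.8 in DMSO and at 75.4, 82.3 and 45.7 in doxycycline (92.3 ± 6.02 and 67.8 ± 19.4). In DMSO and in doxycycline replicate 2 the strongest peak lay just before the canonical start, and in doxycycline replicates 1 and 3 it was another peak, 11306 and 9979 bp wide, over the downstream starts. At the canonical region alone the means were 92.3 and 56.7 and did not overlap. At the start regions 1.92 and 3.86 kb downstream the doxycycline mean was the higher (42.6 ± 36.9 and 58.9 ± 15.1, 50.6 ± 23.1 and 58.9 ± 15.1), and the groups overlapped. Its H3K4me3 percentiles were 97.8, 90.8 and 87.2 in DMSO and 98.7, 96.0 and 73.3 in doxycycline, which overlapped. Its H3K27ac peak was 6530, 5401 and 4351 bp wide in DMSO and 15283, 15312 and 4687 bp in doxycycline, where the first 2 libraries had peaks covering the whole gene body, and the treatments overlapped.

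HMGA2 is the best known let-7 target, and its start was among the strongest H3K27me3 sites. Percentiles were 98.6, 99.5 and 99.2 in DMSO and 98.0, 97.0 and 96.8 in doxycycline (99.1 ± 0.464 and 97.3 ± 0.607), without overlap. Ranked among the genes with a start site peak instead, the percentiles were 84.3, 93.8 and 97.3 in DMSO and 78.4, 72.8 and 89.2 in doxycycline, which overlapped, so the separation was lost. By list percentile, the long-fragment kind had 98.6 in DMSO against 98.0 and 97.0 in doxycycline. The short-fragment kind had 99.5 and 99.2 in DMSO against 96.8 in doxycycline. Each kind had a single library in 1 treatment, so the part of the kind in this difference was not tested. The covered length went with the kind, at 248, 79.1 and 77.3 kb in DMSO and 279, 249 and 89.8 kb in doxycycline. H3K4me1 reached a start in 3 of 3 DMSO libraries, at percentiles of 10.4, 20.4 and 1.9, and in doxycycline replicates 1 and 3, at 26.4 and 66.3. H3K4me2 did so in replicate 1 of each treatment alone. No H3K27ac peak lay in the gene or within 100 kb of it in any of the 6 libraries.

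**Figure D3:**
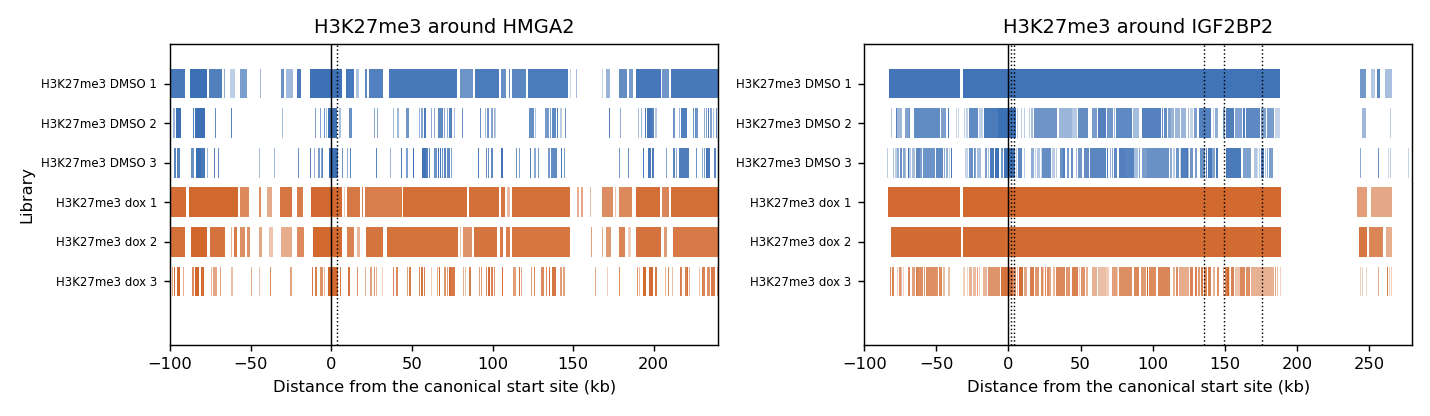
H3K27me3 peaks around HMGA2 (left) and IGF2BP2 (right) in each library (rows, DMSO blue, doxycycline orange), by distance from the canonical start in kb in the direction of transcription. Darker bars have a higher fold enrichment percentile and lines mark annotated starts. DMSO 1, dox 1 and dox 2, the long-fragment libraries, had wide blocks, and the other 3 had many short peaks over the same stretch.

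The 3 IGF2BP genes encode fetal RNA-binding proteins that stabilise growth-promoting mRNAs. IGF2BP1 and IGF2BP3 had some of the strongest H3K27ac in the lists, and IGF2BP2 had none. IGF2BP1 (chr17:48997385-49056145, plus strand) ranked at 99.98, 99.95 and 99.92 for H3K27ac in DMSO and at 99.71, 99.87 and 99.39 in doxycycline. The groups did not overlap, but the peak lay in the top 1% in 6 of 6 libraries, and fold enrichments of 18.8, 15.7 and 10.1 in DMSO and 20.3, 17.7 and 10.2 in doxycycline overlapped. Its H3K4me3 peaks were wide, at 7597, 7746 and 7154 bp in DMSO and 7503, 7416 and 6655 bp in doxycycline. Their percentiles were 91.0, 97.8 and 61.7 in DMSO and 62.3, 71.1 and 55.0 in doxycycline, which overlapped but were lower in all 3 same-numbered pairs. No H3K27me3 reached its start or its body, yet 96.5 to 142 kb of H3K27me3 lay within 100 kb of the gene. H3K4me1 reached a start, at an internal region 16.5 kb downstream, in 1 of 3 DMSO and 3 of 3 doxycycline libraries at percentiles of 19.8 to 29.3.

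IGF2BP3 (chr7:23310209-23470491, minus strand) also ranked near the top for H3K27ac, at 99.8, 99.5 and 99.3 in DMSO and 99.7, 99.4 and 99.6 in doxycycline. These peaks were 9639 to 13496 bp wide, and its H3K4me3 peaks were 5824 to 11124 bp. Its H3K4me2 percentiles were 84.0, 74.1 and 58.0 in DMSO and 88.2, 96.7 and 81.9 in doxycycline. The mean was higher in doxycycline but the groups overlapped. H3K27me3 reached a start in DMSO replicate 3 alone, with a peak of 105 bp.

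The H3K27ac around IGF2BP3 grew in extent. The length under peaks in the gene and its 100 kb flanks was 28.6, 18.8 and 26.5 kb in DMSO and 32.0, 37.1 and 34.9 kb in doxycycline (24.6 ± 5.13 and 34.7 ± 2.58), and the groups did not overlap. For H3K27ac, 2.93% of genes separated upwards in this measure and 13.8% downwards, where no member did, and IGF2BP3 was the only member to separate in any mark. No member did so for H3K4me1, H3K4me2, H3K4me3 or H3K27me3, for which 6.07, 0.571, 5.86 and 0.563% of genes separated in either direction.

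Part of that length lay at an internal start region of IGF2BP3 122.7 kb downstream of the canonical start, which was looked at after its values were seen. In DMSO replicates 1 and 2 the H3K27ac peaks there were 489 and 449 bp wide and replicate 3 had none. In doxycycline they were 4303, 3762 and 3335 bp wide and reached the start region in 3 of 3 libraries, with fold enrichments of 3.25, 2.63 and 2.64. The doxycycline peaks together spanned chr7:23347132-23351682, inside the gene. Among 180 combinations of start region and mark over the 9 genes, this and the LIN28A H3K27ac peak were the 2 with peaks in 3 of 3 against 0 of 3 libraries. The share over the start regions of all genes was not computed, so whether 2 is many or few cannot be said.

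IGF2BP2 (chr3:185643130-185825042, minus strand) carried both H3K4me3 and H3K27me3, a combination called bivalent. Its CpG-rich start, printed above, carried H3K4me1, H3K4me2, H3K4me3 and H3K27me3 without H3K27ac in 6 of 6 libraries, a combination held by 6.23% of genes in DMSO and 6.54% in doxycycline. The H3K4me3 percentiles were 51.3, 53.2 and 45.3 in DMSO and 50.4, 49.7 and 36.5 in doxycycline. The H3K27me3 percentiles were 96.5, 99.7 and 97.5 in DMSO and 97.4, 95.8 and 89.3 in doxycycline, and the treatments overlapped. In the long-fragment libraries a single H3K27me3 peak of 219153 to 220615 bp covered the whole gene, and in the short-fragment ones the start site peak was 8015 to 12126 bp. Its H3K4me1 peak was 3136, 3137 and 2798 bp wide in DMSO and 3393, 3233 and 3322 bp in doxycycline, which did not overlap. For H3K4me1, 2 of 9 members had wider peaks in doxycycline without overlap, against 5.88% of genes. The other was IGF2BP1, for which 2 DMSO libraries had no peak.

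Counted over the 9 genes and 5 marks, 9 pairs of gene and mark separated by start site percentile, all lower in doxycycline and none higher. For H3K4me1 these were LIN28A, TRIM71 and HMGA1, 3 of 9 members with a peak, against 6.84% of genes lower and 6.04% higher. H3K4me2 gave LIN28B, 1 of 9, against 4.77% lower and 5.59% higher. H3K4me3 gave DICER1, 1 of 8, against 9.14% lower and 7.53% higher. H3K27ac gave LIN28A, LIN28B and IGF2BP1, 3 of 7, against 11.8% lower and 6.22% higher. H3K27me3 gave HMGA2, 1 of 4, against 2.48% lower and 3.45% higher. Each count is small, and the genes were named together with earlier results of these data known.

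Replicate numbers went with shared deviations in 4 of the 5 marks. With the replicate number as a block (paired libraries), 22 of the 37 pairs of gene and mark with any peak were lower in all 3 pairs of libraries and 2 were higher, against 18.5% and 15.7% of all gene and mark pairs. By mark, 4 of 9 members were lower for H3K4me1, 6 of 9 for H3K4me2, 5 of 8 for H3K4me3 and 6 of 7 for H3K27ac. The shares of genes were 16.2, 15.2, 21.8 and 26.5%. H3K27me3, where the deviations were not shared at every replicate number, gave 1 of 4 against 8.38%. Marks of the same genes recur among the 37, so they are not independent. Beside the 9 already separated, the lower ones were LIN28A, TRIM71, DICER1, HMGA1 and IGF2BP2 for H3K4me2, LIN28B, TRIM71, IGF2BP1 and IGF2BP2 for H3K4me3, TRIM71, DICER1 and HMGA1 for H3K27ac and DICER1 for H3K4me1. The higher ones were IGF2BP2 for H3K4me1 and IGF2BP3 for H3K4me2. In 8 of the 9 separated pairs a peak was present in both treatments, and in all 8 the ranges of the fold enrichments themselves overlapped. Between same-numbered libraries the fold enrichment was lower in doxycycline in all 3 pairs for 4 of them, DICER1 H3K4me3, TRIM71 H3K4me1, HMGA1 H3K4me1 and LIN28B H3K4me2. It was higher in all 3 pairs for 2, LIN28B H3K27ac and IGF2BP1 H3K27ac, and mixed for LIN28A H3K4me1 and HMGA2 H3K27me3. The lower ranks therefore went with lower enrichment in some pairs and with higher enrichment in others. These comparisons were not always of the same peak. For LIN28B H3K4me2 and H3K27ac in replicate 1, and HMGA1 H3K4me1 in replicates 1 and 3, the treatments' strongest peaks lay at different start regions. LIN28B H3K4me2 fold enrichments were 8.38 to 14.5 in DMSO and 7.33 to 8.54 in doxycycline at the canonical start. At the upstream start they were 5.78 to 10.3 and 6.31 to 12.2. Read counts per region were not used here.

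**Figure D4:**
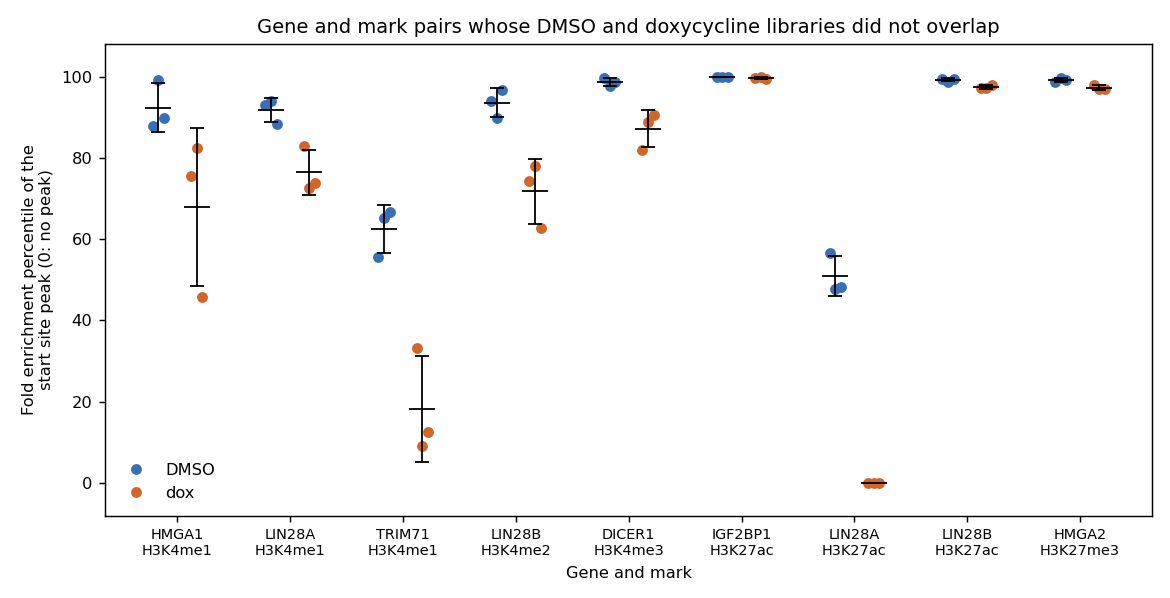
Fold enrichment percentile of the start site peak in each library (points, DMSO blue, doxycycline orange, 0 for no peak) for the 9 separated pairs of gene and mark. Black bars give the mean and SD of 3 libraries. TRIM71 H3K4me1 (62.5 to 18.3) and LIN28A H3K27ac (50.8 to 0) moved most, and the IGF2BP1 H3K27ac, LIN28B H3K27ac and HMGA2 H3K27me3 differences lay within the top 4% of the lists.

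Around the 9 genes, 4 merged peak regions were present in 3 of 3 libraries of a treatment and absent from the other treatment. They included the LIN28A H3K27ac region (chr1:26409391-26410135, intergenic). A weak H3K27ac region gained in doxycycline lay 24.8 kb upstream of IGF2BP1 (chr17:48971979-48973096, intergenic, 3.38 kb from the start of GIP). Over all H3K27ac regions 3.3% separated in either direction, 2.7% lost and 0.6% gained in doxycycline. The H3K27me3 regions gained were in a GRM4 intron 92.3 kb from the HMGA1 start (chr6:34144025-34145083) and in an intron of the pseudogene RPSAP52, 38.2 kb from the HMGA2 start (chr12:65784461-65788050), and 0.458% of H3K27me3 regions separated in either direction, 0.42% as gains. Their mean percentiles were 31.7 for the IGF2BP1 region, 21.0 for the HMGA1 region and 40.6 for the HMGA2 region, so none was a strong peak. They were 1 of 8 H3K27ac regions near LIN28A and 1 of 17 near IGF2BP1. For H3K27me3 they were 1 of 6 near HMGA1 and 1 of 28 near HMGA2. None separated among 27 H3K27ac regions near LIN28B, 15 near TRIM71, 28 near DICER1 and 20 near HMGA1. Nor did any among 4 near IGF2BP2 and 48 near IGF2BP3, and no H3K27ac region lay near HMGA2. For H3K27me3 none did among 7 near LIN28A, 10 near LIN28B, 2 near TRIM71 and 5 near DICER1. The same held for 5 near IGF2BP1, 7 near IGF2BP2 and 17 near IGF2BP3. The long-fragment H3K27me3 lists were DMSO replicate 1 and doxycycline replicates 1 and 2, and the part of this imbalance in the gains was not tested. No H3K4me1, H3K4me2 or H3K4me3 region near a member separated, against 1.77, 0.471 and 1.34% of regions.

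**Figure D5:**
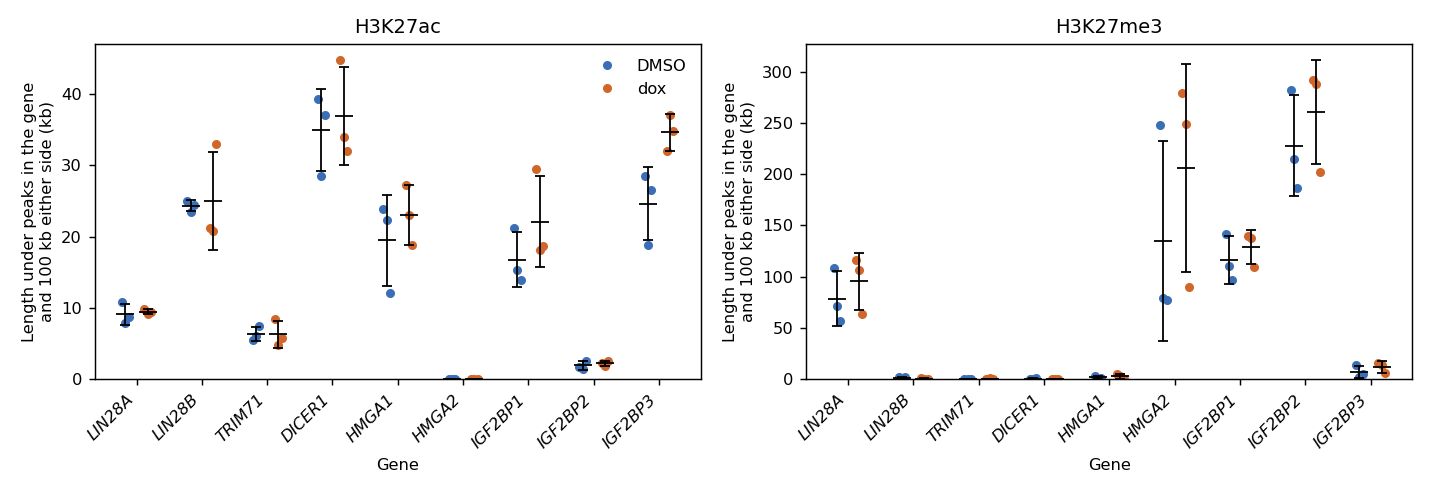
Length under H3K27ac (left) and H3K27me3 (right) peaks in each gene and its 100 kb flanks, in kb, per library (points, DMSO blue, doxycycline orange) with the mean and SD of 3 libraries. IGF2BP3 was the gene whose H3K27ac groups did not overlap. The spread of H3K27me3 at LIN28A, HMGA2 and IGF2BP2 went with the 2 kinds of library.

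The rest of the pathway was read from lists of related genes. The 12 genes that process or turn over let-7 had H3K4me2, H3K4me3 and H3K27ac in 6 of 6 libraries, 12 of 12 for each, and H3K27me3 in none. Among them PRKRA, a partner of DICER1, had H3K4me3 percentiles of 61.0, 66.5 and 54.6 in DMSO and 87.7, 95.0 and 92.6 in doxycycline, the opposite direction to DICER1, and its H3K27ac also ranked higher (96.6 ± 1.5 and 99.2 ± 0.324). DIS3L2, the nuclease that degrades uridylated let-7 precursors, ranked higher for H3K27ac (94.9 ± 2.09 and 98.4 ± 0.431). AGO1 and AGO2, which load mature microRNAs, ranked lower for H3K4me1 (88.8 ± 4.79 and 69.2 ± 3.73, 98.6 ± 0.710 and 86.3 ± 12.0). TARBP2, another DICER1 partner, ranked higher for H3K4me1 (86.3 ± 4.65 and 92.9 ± 1.29) and lower for H3K4me2 (98.7 ± 0.981 and 93.4 ± 5.65). Of these 12 genes, 2 separated lower and 1 higher for H3K4me1, against 6.84% and 6.04% of all genes. For H3K4me2 1 was lower, against 4.77%. For H3K4me3 1 was higher, against 7.53%, and for H3K27ac 2 were higher, against 6.22%. These counts are small, so the named genes describe single cases and not the list.

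The starts of let-7 hairpins lie inside longer primary transcripts, so a missing peak there does not show a silent gene. Of the 12 let-7 genes, MIRLET7A3, MIRLET7B, MIRLET7E and MIRLET7I had H3K27ac within 1 kb of the hairpin in 6 of 6 libraries and the other 8 had none of it. The 5p sequences of MIRLET7A3 and MIRLET7B begin at chr22:46112752 and chr22:46113691. Their windows overlap and can hold the same peak, so they are not separate cases. MIRLET7I, the source of let-7i shown above, had H3K4me3 percentiles of 90.1, 87.1 and 78.1 in DMSO and 68.2, 58.8 and 59.3 in doxycycline, which did not overlap. Its H3K27ac lay above 99.4 in all 6 libraries and ranked lower in doxycycline. For each of these marks 1 let-7 gene separated, of 3 with an H3K4me3 and 4 with an H3K27ac peak in any library. Over protein-coding genes 9.14% were lower for H3K4me3 and 11.8% for H3K27ac.

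The 15 other let-7 targets all had H3K4me3 at a start in 6 of 6 libraries, and 13 had H3K27ac. MYC, CCND2, INSR and IGF1R had H3K27me3 in 6 of 6. ARID3B ranked lower for H3K4me3, at 96.4, 100.0 and 99.2 in DMSO and 59.1, 88.0 and 54.1 in doxycycline, and lower for H3K4me2 (96.4 ± 0.381 and 93.0 ± 3.32). CDC34 and IGF1R ranked higher for H3K4me3 (58.0 ± 8.67 and 82.2 ± 11.8, 59.1 ± 5.70 and 77.6 ± 8.07), and IGF1R ranked lower for H3K27ac (95.4 ± 1.46 and 91.1 ± 1.85). Of the 15 targets, 1 was lower and 2 higher for H3K4me3, against 9.14% and 7.53% of all genes. For H3K4me2 1 of 15 was lower, against 4.77%, and for H3K27ac 1 of 13, against 11.8%. Of 6 other oncofetal genes, SALL4 carried all 5 marks in 6 of 6 libraries and IGF2 and DLK1 the 4 active ones. AFP, the fetal liver protein, had neither H3K4me3 nor H3K27ac in any, GPC3 had H3K27ac in 1 library and H19 in 5 of 6. None of the 6 separated by percentile in any mark.

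For the 8 members with a start peak in at least 15 libraries, the protein-coding genes nearest in percentile over all 30 libraries were found as a description. Likeness was the mean absolute difference in percentile points. IGF2BP2 had the closest match, TMEM200C at 3.10 points, with KCNK12 at 3.16, against a median of 49.6 over all genes. LIN28A was nearest to GRAP2 (6.87) and UMODL1 (8.99), and LIN28B to KMT2A (5.22) and ZNF614 (5.46). TRIM71 was nearest to NUDT19 (6.23), DICER1 to ZNF213 (5.21), HMGA1 to LIPT2 (4.67) and IGF2BP3 to ZNF764 (5.69). All genes were read from the same 30 libraries, so these differences share each library's depth and input.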

How the data were processed

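Peak lists from ChIP-seq of KELLY cells were grouped by the labels into 3 DMSO and 3 doxycycline libraries for each of 5 histone marks. The 34 labelled samples include 4 inputs, which had no list of their own and served in peak calling. Per the file headers and the study's methods, the authors aligned reads to hg38 with Bowtie2 and called peaks per library with MACS2 2.1.1.20160309 against an input. H3K4me2 and H3K4me3 were called in narrow mode, by p per the headers and by q per the methods, and the other marks in broad mode. The headers name inputs of equal totals for replicates 1 and 3, so these replicates seem to have had a common input. Pileup, as deposited, is a coverage signal. Fold enrichment, as deposited, is the ratio of ChIP signal to the local input level. The authors' peak caller also gave −log10 values of p and q for each peak. A deeper library yields more weak peaks and longer lists, which moves presence and rank. No counts per region were used, so no count test was run and precision is limited by 3 libraries per group.

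Start sites and bodies came from GENCODE 44 (hg38). Python 3 scripts with numpy and pandas took, for each library, the peaks within 1 kb of any start site, in the gene body and within 100 kb, and ranked fold enrichment within its list. Groups were compared by exact permutation and by separation, beside the share of all genes that separated. Replicate numbers were checked for pairing: the correlation of same-numbered deviations from group means, over genes with a peak in all 6 libraries, was above 0.1 in every pair for H3K4me1 (0.110 to 0.178), H3K4me2 (0.109 to 0.259), H3K4me3 (0.133 to 0.184) and H3K27ac (0.187 to 0.393), but not for H3K27me3 (lowest 0.0672). The interval functions were checked against bedtools and tested on simulated data. Alternatives were stricter q, other windows, lists of equal length, other ranks, a replicate block and leaving out libraries. The percentile among genes, and the canonical start and 2.5 kb window for percentiles, were added after seeing the data. All 9 members were named. Related genes came from listed groups, with those that separated named, and likeness used the 2 nearest genes. The genes nearest to IGF2BP1 are not reported here. The members and lists were chosen with earlier results of these data known. Promoter and microRNA sequences are from RefSeq (GRCh38.p14).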

Additional observations from a re-analysis of the deposited data

How the results depend on the processing

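Of 167 single values recomputed, all for comparisons already called separated, 137 moved by less than the spread between libraries, 30 by more, and 0 changed sign. With the replicate block or with libraries left out, a change of sign was impossible by construction. All 9 percentile falls still separated with the canonical start alone and with a 2.5 kb window. They also did with the replicate block and with libraries left out, but groups that do not overlap must stay separated there by construction. These settings therefore could not have lost any of the 9. At a q of 0.001 or less 7 separated (without LIN28A H3K4me1 and HMGA2 H3K27me3). With the widest peak 7 did too (without HMGA1 H3K4me1 and LIN28B H3K4me2). Of the 9, 8 did with lists of equal length (without HMGA1 H3K4me1), with the −log10 q-value as rank (without LIN28B H3K27ac) and with ranks among genes (without HMGA2 H3K27me3). The count of pairs lower in doxycycline was 7 to 10 over the settings that kept every library, and 22 with the replicate block, under which 2 were higher. With lists of equal length and with ranks among genes 1 pair, IGF2BP3 H3K4me2, was higher. Leaving out libraries gave 9 to 17 lower and 0 to 3 higher.

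No pair separated by presence at a q of 1e-10 or less, and 1 to 2 did with libraries left out. The pairs with peaks in all libraries numbered 21 to 31. For covered length within 100 kb, 50 kb flanks gave 1 pair lower, the gene body alone and lists of equal length each gave 3 higher, and the replicate block gave 6 lower and 12 higher. With libraries left out, 0 to 5 were lower and 1 to 8 higher. Regions lost numbered 2 at a q of 0.001 or less and with lists of equal length, and 17 with at least 2 of 3 libraries. Regions gained numbered 1, 7 and 13 in those settings. With libraries left out, 1 to 16 were lost and 3 to 22 gained. The cause of these shifts was not tested, though fewer libraries make separation easier by construction.

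The LIN28A H3K27ac call rests on 3 libraries per group and on peaks of mid rank. Calling depth, which the smaller doxycycline inputs mostly set, was lower in the doxycycline libraries, while ChIP reads overlapped between treatments. The part of calling depth in the results, the LIN28A H3K27ac call among them, was not tested. Differences that miss separation are not shown to be absent.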
